A study of Mus musculus with 12 samples.

Results

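Complement components and regulators were followed in mouse kidney as 9 genes chosen by name, C1ra, C1s1, C4a, C4b, C3, Cfb, Cfi, Cd55 and Cd59a, out of 14091 genes in the deposited table. All 9 were measured in all 12 libraries. Kidney RNA was sequenced from wild-type male C57BL6 mice that began their diets at 10 weeks of age and ate them for 12 weeks. The high-fat, high-sucrose diet, HFD, held 12.6% protein, 29% fat and 46.2% carbohydrate, and the normal diet, ND, held 20% protein, 10% fat and 70% carbohydrate. For hepatic ischemia-reperfusion injury (hIRI) the vessels feeding 2 lobes of the liver, the left lateral and the right median, were clamped for 60 min, so the kidney itself was not clamped. Sham mice had the abdomen opened without clamping. Kidneys were taken 6 h later, giving 4 groups of 3 mice, HFD + hIRI, HFD + sham, ND + hIRI and ND + sham.

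Complement is a cascade of plasma and membrane proteins that tags and lyses targets and calls in inflammatory cells. In the classical pathway the proteases C1r and C1s, carried on C1q, cleave C4 and C2. In the alternative pathway factor B joins C3b to form a C3-cleaving enzyme that amplifies its own product. Both meet at C3, and the host limits them with factor I, which inactivates C3b and C4b, with CD55, which speeds the decay of the C3-cleaving enzymes, and with CD59, which blocks the pore that ends the cascade. The liver makes most plasma complement, and kidney tubules make C3 and factor B of their own.

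Levels are given as CPM, the read count divided by the scaled library size, and differences as log2 fold changes (log2FC) followed by the standard error (SE). A gene passed at a Benjamini-Hochberg adjusted p under 0.05 over all 14091 genes in edgeR's quasi-likelihood test of all 12 libraries. Library totals ran between 20874584 and 29451344 counts. The numbers in the library names form 2 runs, the lower of 4 libraries and the higher of 8, under 1 batch tag, with 0 HFD + hIRI and 2 HFD + sham libraries in the lower run. Kidney tubule and podocyte markers, 9 of 9 measured, summed to between 12860 and 16120 CPM, with all 9 detected. Markers of injured tubule summed to between 4522 and 19990 CPM in HFD + hIRI kidneys, 922 and 1217 CPM in HFD + sham, 876 and 4376 CPM in ND + hIRI, and 974 and 1059 CPM in ND + sham kidneys. The highest of these sums was in HFD + hIRI replicate 1, and the sum of ND + hIRI replicate 1 lay below that of every sham kidney. Spp1 made up most of each sum, at 805.6 of 876 CPM in ND + hIRI replicate 1. In that library Spp1, Havcr1, Krt20 and Krt18 lay below all ND + sham kidneys, Lcn2, Sox9 and Cdkn1a above them and Vcam1 between. Adrenal cortex markers, 3 of 6 in the table, summed to between 29.2 and 70.2 CPM in HFD + hIRI kidneys. They reached at most 6.33 CPM in HFD + sham, 17.3 CPM in ND + hIRI and 3.56 CPM in ND + sham kidneys. In HFD + hIRI kidneys Akr1b7 alone measured 64.86, 25.82 and 32.14 CPM, while Star and Mc2r reached at most 2.79 and 2.58 CPM. Cyp11b1, Cyp11a1 and Cyp21a1 were not in the table.

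Per kilobase of exon, factor B was the most abundant of the 9 RNAs in kidney. Cfb averaged 203 CPM per kilobase over the 12 libraries, C3 31.0, Cd59a 19.9, C1s1 10.9, Cd55 7.40, C1ra 5.77, C4b 3.85, Cfi 2.67 and C4a 0.281 CPM per kilobase. C3 came closest to Cfb in HFD + hIRI kidneys. The ratio of C3 to Cfb per kilobase was 0.378, 0.237 and 0.211 in HFD + hIRI kidneys, and it reached at most 0.171 in the other 9 libraries, in ND + sham replicate 3. Among complement genes that are not members, Clu, which encodes the fluid-phase regulator clusterin, averaged 270.4 CPM per kilobase and the C1 inhibitor Serping1 44.8 CPM per kilobase.

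**Figure D1:**
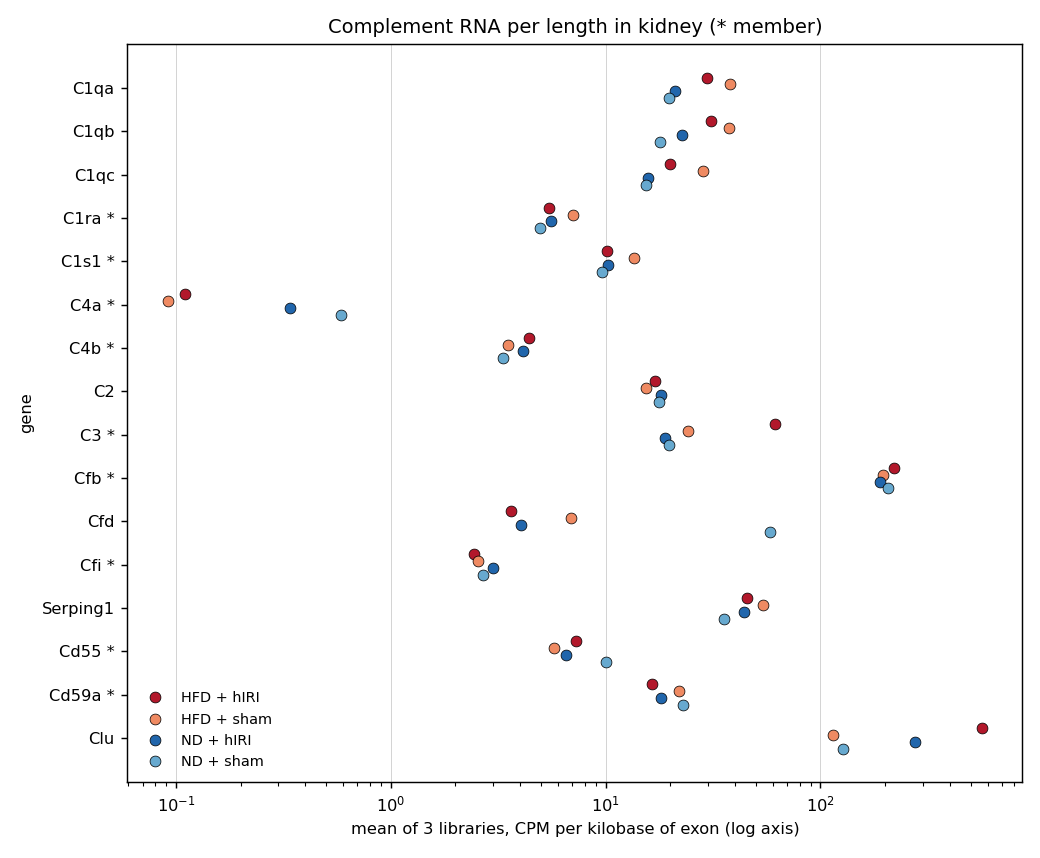
Mean level per length of the 9 members (starred) and 7 related complement genes, in CPM per kilobase of exon on a log axis, with 1 point per group (mean of 3 libraries). Cfb averaged 203 CPM per kilobase and C4a 0.281, and the C3 point of HFD + hIRI, at 61.3, lies right of those of the other 3 groups, which lie between 18.8 and 24.3.

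Few of the members passed in any comparison. Over HFD + sham, 2 members passed in HFD + hIRI kidneys, Cd59a and C1s1, both lower, a share of the members close to the 19.9% of all genes called. Of the other tools, edgeR's likelihood ratio test passed 3 members there (adding C3) beside 24.7% of all genes, DESeq2 the same 2 beside 30% and limma voom with quality weights 3 (adding C1ra) beside 41.4%. Over ND + hIRI, 0 members passed in HFD + hIRI kidneys, where 1.35% of all genes were called. C3 was higher and C4a lower there at an unadjusted p under 0.05, as were 14.9% (higher) and 12.2% (lower) of all genes. Both passed that comparison by the likelihood ratio test, which called 7.92% of all genes, and by DESeq2, which called 12.7%, and 0 members passed by voom, which called 5.7%.

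In ND + hIRI over ND + sham kidneys 0 members passed, and 0% of all genes did. Cd59a, which was lower, was the 1 member under an unadjusted p of 0.05 there, where 6.17% of all genes were lower and 8.23% higher by the same p. It passed by DESeq2 (3.15% of all genes called) and by voom (4.94%) but not by the likelihood ratio test (2.45%). In HFD + sham over ND + sham kidneys 0 members passed beside 0.0142% of all genes. The unadjusted p was under 0.05 for 2 members that were higher and 2 that were lower, against 4.58% and 4.22% of all genes. The likelihood ratio test and DESeq2 each passed 1 member, C4a, beside 0.319% and 0.937% of all genes, and voom passed 3, C4a, Cd55 and C1s1, beside 2.24%.

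The response to hIRI was then compared between diets, and the diets over both surgeries. For the difference between diets in the response to hIRI, 0 members passed beside 0.0142% of all genes. There 1 member, C1s1, was lower at an unadjusted p under 0.05, as were 4.35% of all genes, with 5.79% higher. The likelihood ratio test, DESeq2 and voom each passed 0 members in that comparison, beside 0.0568%, 0.234% and 0.0284% of all genes. For HFD over ND kidneys of both surgeries 1 member passed, C4a, which was lower, beside 2.75% of all genes. C4a also passed by the likelihood ratio test (7.53% of all genes called), by DESeq2 (10.3%) and, with Cd55, by voom (10.6%). The median log2FC of the 9 members was 0.18 for HFD + hIRI over HFD + sham and -0.0070 for HFD + hIRI over ND + hIRI, against -0.0056 and 0.0045 over all genes. These comparisons share libraries, so their values for a gene are not independent.

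**Figure D2:**
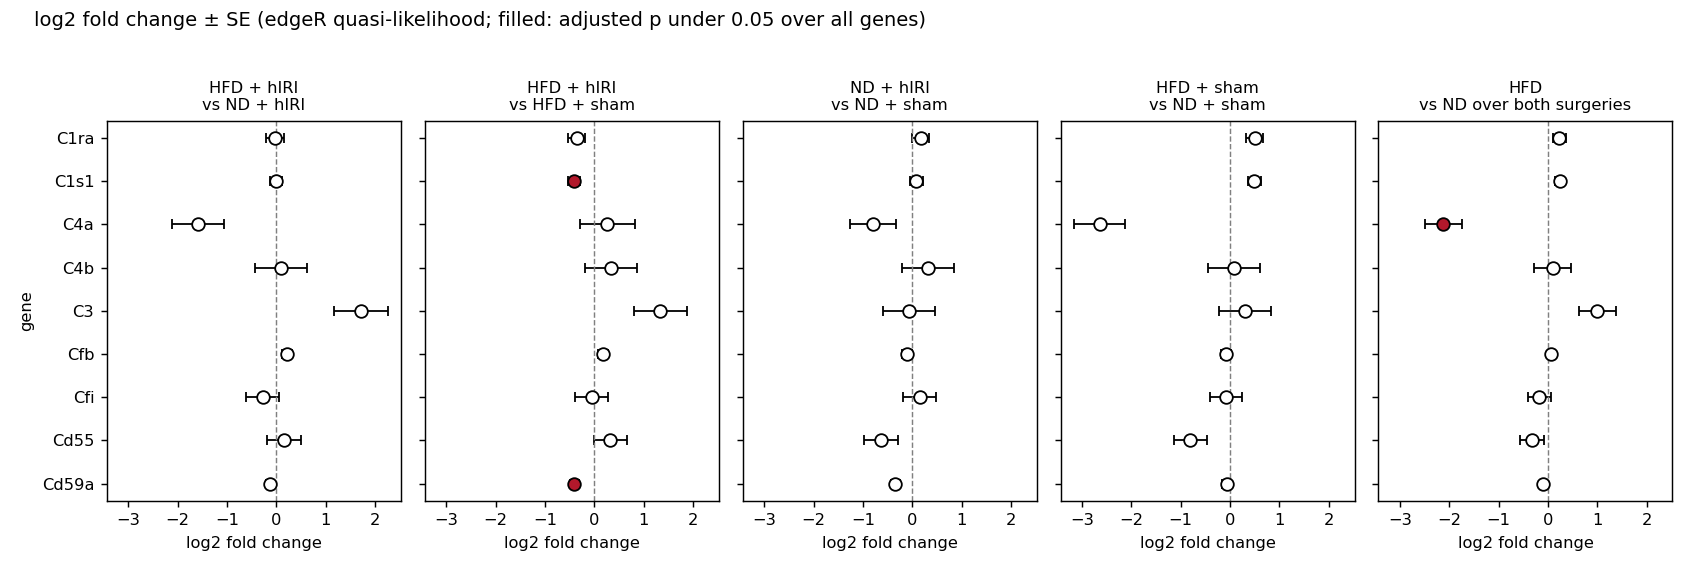
Log2FC (points) with its SE (bars) of each of the 9 members in 5 comparisons, from edgeR's quasi-likelihood fit, where filled points passed at an adjusted p under 0.05 over all genes. The filled points are C1s1 and Cd59a for HFD + hIRI over HFD + sham and C4a in HFD over ND kidneys, all left of 0.

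C1ra and C1s1 encode the paired serine proteases that start the classical pathway. Both were at their highest in HFD + sham kidneys. C1s1 (chr6:124530344-124542359, minus strand, mm10) measured 30.5, 27.2 and 33.4 CPM in HFD + hIRI kidneys and 37.5, 42.2 and 41.8 CPM in HFD + sham kidneys. It measured 27.1, 31.3 and 33.2 CPM in ND + hIRI kidneys and 25.7, 33.7 and 27.0 CPM in ND + sham kidneys. Every HFD + sham library lay above every library of the other 3 groups, as for 1.34% of all genes. C1s1 fell in HFD + hIRI relative to HFD + sham kidneys by 0.41 on the log2 scale (SE 0.13, adjusted p = 0.0443, edgeR). In bulk kidney, fewer cells of a type and less RNA per cell cannot be told apart. In HFD + sham over ND + sham kidneys its log2FC was 0.49 (SE 0.13, adjusted p = 0.325), with no overlap. The response to hIRI differed between diets by -0.50 (SE 0.18, unadjusted p = 0.0188, adjusted p = 0.486), which did not pass.

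C1ra (chr6:124512621-124523440, plus strand) had its highest levels in the same group. It measured 15.5, 13.4 and 16.5 CPM in HFD + hIRI kidneys and 18.01, 19.6 and 20.6 CPM in HFD + sham kidneys. In ND + hIRI kidneys it measured 11.8, 16.8 and 17.8 CPM, and in ND + sham kidneys 11.3, 16.5 and 13.4 CPM. Again each HFD + sham library was above all 9 others, so that 2 of 9 members had this order. Its log2FC was -0.36 (SE 0.18, adjusted p = 0.153) in HFD + hIRI over HFD + sham and 0.50 (SE 0.18, adjusted p = 0.455) in HFD + sham over ND + sham kidneys, and the first of these differences passed by voom with quality weights (adjusted p = 0.0151). The 2 genes kept a near-fixed ratio: C1s1 CPM over C1ra CPM lay between 1.86 and 2.30 in the 12 libraries. Fibroblast markers, 7 of 7 measured, summed to between 259 and 297 CPM in HFD + hIRI kidneys, 266 and 294 CPM in HFD + sham, 226 and 304 CPM in ND + hIRI, and 200.9 and 327 CPM in ND + sham kidneys, ranges that overlap. The single markers did not move together. Between HFD + hIRI and HFD + sham kidneys Col1a1, Col1a2 and Lum were lower and Pdgfrb higher without overlap, while Col3a1, Dcn and Pdgfra overlapped. The part of fibroblasts in the C1ra and C1s1 values was not tested.

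The call of C1s1 ended without any of the 3 HFD + sham replicates (adjusted p = 0.0756, 0.135 and 0.11), HFD + hIRI replicate 1 or 2 (0.0841 and 0.115), ND + hIRI replicate 2 (0.0573) or ND + sham replicate 1 or 3 (0.0518 and 0.0574). It also ended with the run of library numbers as a covariate (0.0776), with only the libraries compared (0.0711) and with the replicate block (0.0556). In the 8 libraries of the higher number run, where HFD + sham is 1 library, the log2FC of C1s1 was -0.46. In all of these fits its log2FC lay between -0.54 and -0.34. Calls over all genes fell in the same comparison too, to 276, 1 and 45 genes without HFD + sham replicate 1, 2 or 3, to 18 with the covariate and to 0 in the higher number run, against 2801 with all libraries. Exons of C1s1 overlap those of the antisense gene Gm16567 by 442 bases, and how strand was counted is not given, so reads there may belong to either gene.

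The start regions of C1ra and C1s1 are shown because the RNAs of these neighbouring genes had the same highest group. The windows hold 250 bases before and 50 after the start site (RefSeq, GRCm38.p6, each read on its gene's strand), and capitals mark matches to the motifs searched on both strands.
C1ra, chr6:124512371-124512670, plus strand: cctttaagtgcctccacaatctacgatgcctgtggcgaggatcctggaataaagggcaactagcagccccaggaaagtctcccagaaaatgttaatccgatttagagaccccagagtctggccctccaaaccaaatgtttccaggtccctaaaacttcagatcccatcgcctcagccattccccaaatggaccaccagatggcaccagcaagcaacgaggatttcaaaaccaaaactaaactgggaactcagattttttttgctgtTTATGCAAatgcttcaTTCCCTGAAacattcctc
C1s1, chr6:124542310-124542609, minus strand: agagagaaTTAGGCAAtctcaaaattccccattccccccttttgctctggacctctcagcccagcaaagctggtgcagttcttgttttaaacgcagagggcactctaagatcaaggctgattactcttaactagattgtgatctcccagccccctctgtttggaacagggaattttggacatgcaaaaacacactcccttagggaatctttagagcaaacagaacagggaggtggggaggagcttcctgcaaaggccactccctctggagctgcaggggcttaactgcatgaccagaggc
The C1ra window holds TTATGCAA from base 17 after the start, a match on the opposite strand to the C/EBP motif TTGCNNAA, and TTCCCTGAA from base 33, a match to the STAT motif TTCNNNGAA. The C1s1 window holds TTAGGCAA, also a C/EBP match on the opposite strand, 242 bases before the start and no STAT match. RefSeq has a second C1s1 start, and its window, chr6:124542272-124542571, holds no match to any motif searched. The C/EBP motif is found in 10.8% and the STAT motif in 8.3% of 32851 promoter windows of this length, and the matches do not overlap each other. A match is only a description of these letters.

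C1q, the recognition part that carries C1r and C1s and is made mainly by macrophages, and C1 inhibitor (Serping1) were measured beside them. C1qa measured 31.7, 34.7 and 29.6 CPM in HFD + hIRI kidneys, 30.2, 33.7 and 59.3 CPM in HFD + sham, 17.7, 21.5 and 29.1 CPM in ND + hIRI and 18.6, 19.1 and 26.0 CPM in ND + sham kidneys. All 6 HFD libraries were above all 6 ND libraries, as for 0.809% of all genes. C1qb was higher on the HFD over both surgeries by 0.75 on the log2 scale (SE 0.18, adjusted p = 0.0508) and C1qa by 0.72 (SE 0.18, adjusted p = 0.0608), and neither passed by edgeR's quasi-likelihood test. Both passed that comparison by the likelihood ratio test, DESeq2 and voom, which called 7.53%, 10.3% and 10.6% of all genes, and C1qc passed by none of them. Serping1 averaged 97.9 ± 11.1 CPM (SD, n = 3) in HFD + sham and 64.8 ± 9.03 CPM in ND + sham kidneys, a log2FC of 0.60 (SE 0.15, adjusted p = 0.31). Between these groups Serping1 passed by DESeq2 and voom, which called 0.937% and 2.24% of all genes. C1qb passed there by both and by the likelihood ratio test, which called 0.319%. Macrophage markers, 8 of 8 measured, summed to between 111 and 131 CPM in HFD + hIRI kidneys, 120 and 265 CPM in HFD + sham, 81.5 and 114 CPM in ND + hIRI and 89.2 and 157 CPM in ND + sham kidneys. HFD + sham replicate 3 had both the highest macrophage sum and the highest C1qa, and the part of macrophages in these values was not tested.

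**Figure D3:**
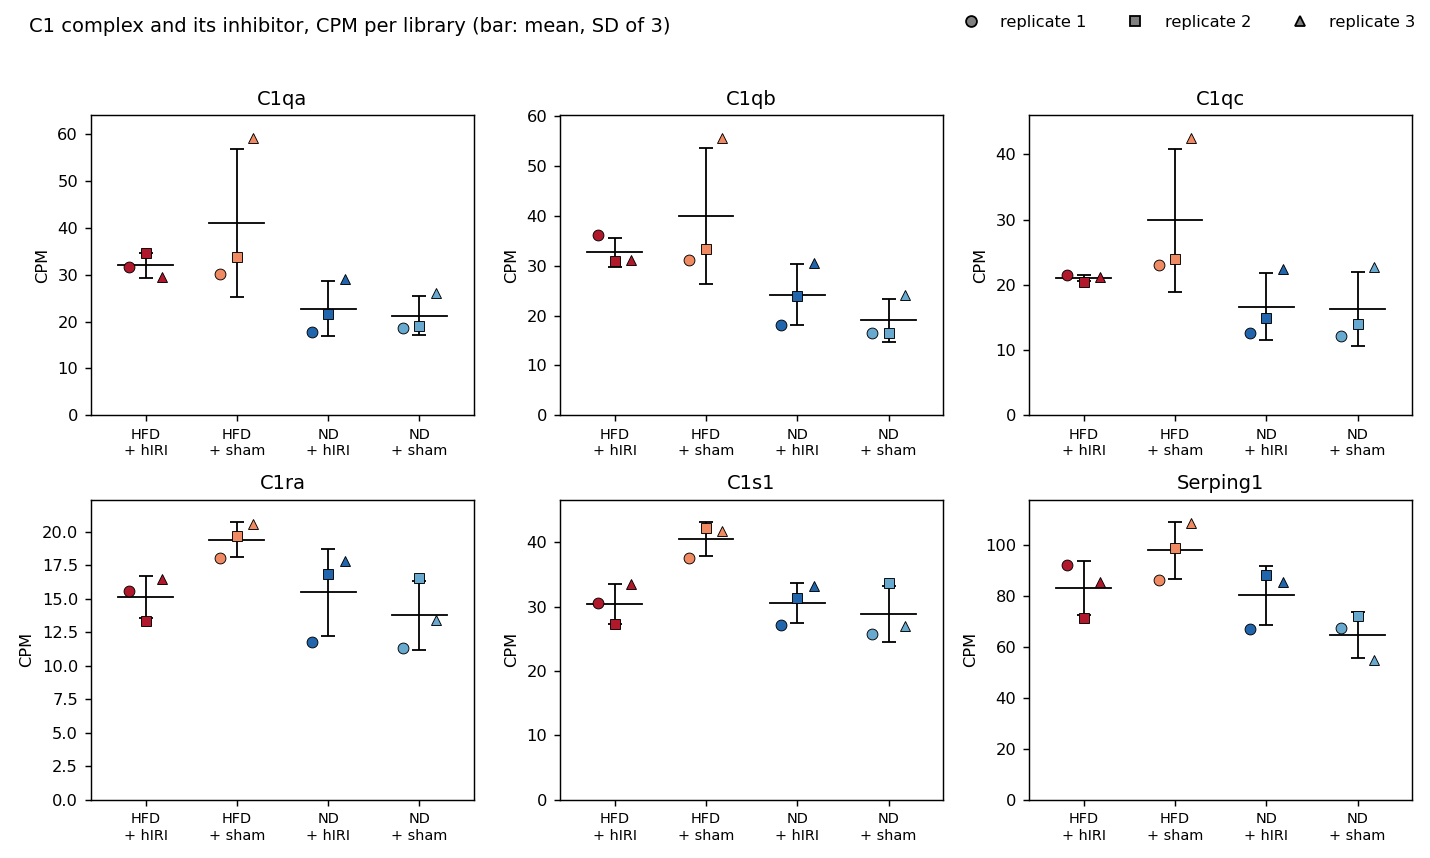
CPM of the C1 complex genes C1qa, C1qb, C1qc, C1ra and C1s1 and of the C1 inhibitor Serping1 in each library, by group, with symbols for replicate number and bars for the mean and SD of 3. For C1ra and C1s1 the 3 HFD + sham points lie above all others, at 18.01 to 20.6 and 37.5 to 42.2 CPM.

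C4a and C4b are neighbouring copies on chromosome 17, of which C4b encodes C4, the substrate of C1s in the classical pathway. In the mouse the C4a protein is also known as the sex-limited protein. C4a (chr17:34809092-34823454, minus strand) was the scarcest member, and it was lower in every HFD kidney than in every ND kidney. It had 10, 23 and 8 counts (0.516, 0.880 and 0.369 CPM) in HFD + hIRI kidneys and 19, 9 and 11 counts (0.623, 0.386 and 0.469 CPM) in HFD + sham kidneys. It had 40, 23 and 58 counts (1.59, 1.076 and 2.79 CPM) in ND + hIRI and 78, 45 and 151 counts (2.67, 1.58 and 5.16 CPM) in ND + sham kidneys. Of all genes, 0.965% were lower without overlap in the 6 HFD libraries. C4a fell on the HFD over both surgeries by 2.12 on the log2 scale (SE 0.37, adjusted p = 0.0198, edgeR).

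Within each surgery the difference by diet had the same sign and did not pass. The log2FC of C4a was -1.59 (SE 0.52, adjusted p = 0.0985) in HFD + hIRI over ND + hIRI and -2.65 (SE 0.52, adjusted p = 0.22) in HFD + sham over ND + sham kidneys. The call over both surgeries ended without HFD + sham replicate 1, 2 or 3 (adjusted p = 0.0653, 0.0677 and 0.0622). In the 8 libraries of the higher number run the value was -2.26 (adjusted p = 0.497). Deviations of same-numbered ND kidneys correlated weakly (0.170, 0.196 and 0.197), inside the range of different-numbered libraries, which reached 0.471. In ND + hIRI over ND + sham kidneys C4a was lower in 3 of 3 same-numbered pairs, but the numbers are not known to pair the mice and the groups overlapped. Its log2FC there was -0.79 (SE 0.47, adjusted p = 0.457), or -0.74 (SE 0.30, adjusted p = 0.314) with the pairs as a block. It did not pass either way.

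C4b (chr17:34728381-34743897, minus strand) did not follow C4a. It measured 10.1, 25.9 and 35.5 CPM in HFD + hIRI kidneys, 15.5, 17.6 and 23.9 CPM in HFD + sham, 11.1, 20.2 and 35.7 CPM in ND + hIRI and 8.36, 17.8 and 27.6 CPM in ND + sham kidneys. All groups overlapped, and its log2FCs in all 6 comparisons lay within 1 SE of 0. With the counts of both genes summed, the diets differed by -0.045 on the log2 scale (SE 0.36, adjusted p = 0.948). C4a made up 4.85%, 3.28% and 1.03% of C4a and C4b counts in HFD + hIRI and 3.87%, 2.14% and 1.92% in HFD + sham kidneys. It made up 12.5%, 5.05% and 7.24% in ND + hIRI and 24.2%, 8.15% and 15.7% in ND + sham kidneys. These groups overlapped. The share was lower in ND + hIRI than in the ND + sham kidney of the same number in 3 of 3 pairs, though the numbers are not known to pair the mice. The share of every HFD library was under that of every ND library, although the nearest shares, 4.85% (exact 95% interval 2.35% to 8.75%) in HFD + hIRI replicate 1 and 5.05% (3.23% to 7.49%) in ND + hIRI replicate 2, overlap in their intervals. These intervals cover counting error only.

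**Figure D4:**
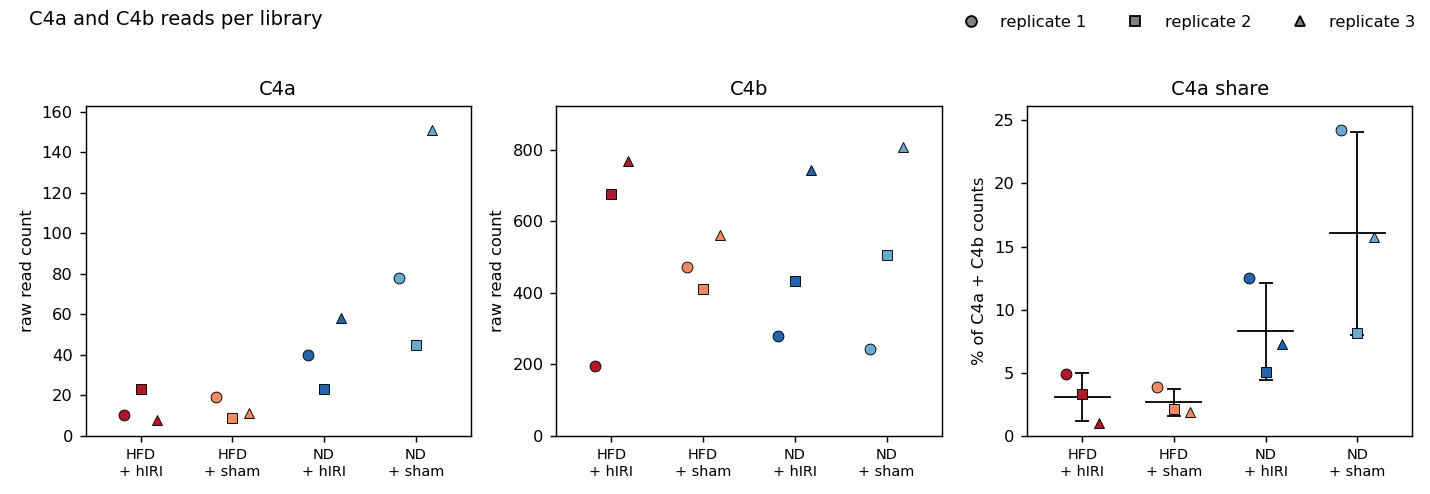
Raw counts of C4a and of C4b in each library, and C4a as a percentage of both, by group, with symbols for replicate number and bars in the right panel for the mean and SD of 3. The C4a counts of the 6 HFD libraries lie between 8 and 23, against 23 to 151 in the 6 ND libraries, while the C4b counts overlap between all groups.

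Reads from the pair can be told apart only in part. The GENCODE transcripts of C4a (5357 bases) and C4b (5379 bases) are identical at 96.15% of 5357 aligned bases. Of the 5258 windows of 100 bases in C4a, 16.57% occur unchanged in C4b, and the longest identical run is 433 bases. The stretch of 60 bases with most differences, 13, is shown because it holds the bases by which reads can be assigned to one copy, with the differing bases in capitals (mRNA sense, GRCm38 transcript bases 2745 to 2804 of C4a and 2761 to 2820 of C4b).
C4a: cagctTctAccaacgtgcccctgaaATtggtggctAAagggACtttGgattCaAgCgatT
C4b: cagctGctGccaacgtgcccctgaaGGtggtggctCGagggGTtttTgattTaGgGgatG
The annotation lists C4a as a processed transcript rather than as protein coding. Its values remain uncertain to the extent that reads were shared or discarded between the copies.

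C3, the protein on which all complement pathways meet, was highest in HFD + hIRI kidneys. C3 (chr17:57203967-57228136, minus strand) measured 450.1, 253 and 241 CPM in HFD + hIRI kidneys and 103, 115 and 156 CPM in HFD + sham kidneys. It measured 94.3, 50.6 and 145 CPM in ND + hIRI and 41.8, 63.8 and 198 CPM in ND + sham kidneys. Each HFD + hIRI library exceeded each of the other 9 libraries, as it did for 7.55% of all genes. The log2FC was 1.70 (SE 0.55, adjusted p = 0.0968) over ND + hIRI and 1.34 (SE 0.54, adjusted p = 0.0927) over HFD + sham kidneys, and neither passed. In ND + hIRI over ND + sham kidneys the value was within 1 SE of 0, and the difference between diets in the response to hIRI was 1.40 (SE 0.76, adjusted p = 0.529). With HFD and ND compared over both surgeries it was 1.00 (SE 0.38, adjusted p = 0.154).

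ND + sham replicate 3 stood apart for C3, at 198 CPM beside 41.8 and 63.8 CPM. Without it C3 passed over HFD + sham (log2FC 1.34, adjusted p = 0.0434) and on the HFD over both surgeries (1.47, adjusted p = 0.0463). Over ND + hIRI C3 did not pass (1.70, adjusted p = 0.073). In that fit 2180, 166 and 81 of all genes passed in these comparisons, against 2801, 387 and 190 with all libraries. ND + sham replicate 3 belongs to neither HFD group. Over HFD + sham the log2FC of C3 therefore stayed at 1.34, and its call changed through the estimate of spread shared by all groups. The library was singled out by its C3 value, so these calls are description only. Without HFD + hIRI replicate 1 the value over ND + hIRI was 1.35 (adjusted p = 0.273), and without ND + hIRI replicate 1 it was 1.69 (adjusted p = 0.214). The order of C3 in the HFD + hIRI kidneys was the order of their injured tubule markers, which summed to 19990, 8974 and 4522 CPM. It was the reverse of the order of their hepatocyte marker sums, 226.9, 305 and 337 CPM. Ttr made up most of these hepatocyte sums (171.8, 253.5 and 262.2 CPM), and of the list only Ttr and Apoh rose in that order. In ND + hIRI kidneys, where C3 measured 94.3, 50.6 and 145 CPM, the injured tubule sums were 876, 2936 and 4376 CPM, which is not the order of C3. ND + sham replicate 3 had 1059 CPM of these markers and the highest hepatocyte sum of its group, 319.5 CPM. Of the hepatocyte list only Ttr and Apoc3 were highest of the group in that library. Hepatocyte markers, 8 of 8 measured and led by Ttr and Alb, summed to between 227 and 337 CPM in HFD + hIRI kidneys, 178 and 383 CPM in HFD + sham, 116 and 229 CPM in ND + hIRI and 198 and 319.5 CPM in ND + sham kidneys. The part of either marker list in the C3 values was not tested.

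The window around the C3 start is shown because C3 is the member that stood highest in HFD + hIRI kidneys (RefSeq, GRCm38.p6).
C3, chr17:57228087-57228386, minus strand: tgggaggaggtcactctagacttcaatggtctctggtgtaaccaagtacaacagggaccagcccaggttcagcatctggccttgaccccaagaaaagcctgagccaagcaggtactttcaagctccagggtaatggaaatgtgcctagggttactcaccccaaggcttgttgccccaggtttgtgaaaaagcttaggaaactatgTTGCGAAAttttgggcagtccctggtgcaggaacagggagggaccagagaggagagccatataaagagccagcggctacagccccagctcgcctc
The capitals mark TTGCGAAA, a match to TTGCNNAA that begins 45 bases before the start. Windows of 5 of the 9 members were found, those of C3, Cd55, Cd59a, C1ra and C1s1. The C3 window holds no match to TTCNNNGAA, to the interferon-stimulated response element (ISRE) or to an NF-kB site as searched. The ISRE, present in 3.44% of all windows, was matched in that of Cd59a alone, and the NF-kB site, present in 1.63%, in none of the 5.

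Genes whose pattern over the 12 libraries was nearest to C3 were Serpina1a, Abcb1b and Mgst1. The root mean square difference of centred log2 CPM was 0.484, 0.494 and 0.50 among 12174 genes whose mean log2 CPM was 1 or more, against an SD of 0.971 for C3 itself. Mgst1 averaged 302.5 CPM in HFD + hIRI kidneys, 121 CPM in HFD + sham, 95.99 CPM in ND + hIRI and 111 CPM in ND + sham kidneys. Serpina1a averaged 56.1 CPM in HFD + hIRI kidneys, 33.1 CPM in HFD + sham, 26.4 CPM in ND + hIRI and 21.0 CPM in ND + sham kidneys. Likeness is a description over the same libraries, with no test.

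Cfb encodes factor B, the protease component of the alternative pathway enzyme, and its RNA varied little. Cfb (chr17:34856374-34862514, minus strand) measured 637, 571 and 611 CPM in HFD + hIRI kidneys and 525, 511 and 568 CPM in HFD + sham kidneys. In ND + hIRI kidneys it measured 460.1, 533 and 575 CPM and in ND + sham kidneys 538, 538 and 619 CPM. The highest library was 1.38 times the lowest. HFD + hIRI libraries lay above HFD + sham libraries without overlap, with a log2FC of 0.18 (SE 0.11, adjusted p = 0.216), and overlapped both ND groups. Over ND + hIRI the log2FC was 0.21 (SE 0.11, adjusted p = 0.21). Exons of Cfb overlap those of Gm20547 on the same strand by 262 bases, so reads there may belong to either gene. The 3 nearest patterns, Krr1, Sap30bp and Rbm41, differed by 0.068, 0.0702 and 0.0743 on the log2 scale beside an SD of 0.126 for Cfb.

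C2, the classical pathway counterpart of factor B, and Cfd, the protease that activates factor B and is secreted by fat cells, did not pass in any comparison either. C2 averaged 45.1 ± 3.27 CPM (SD, n = 3) in HFD + hIRI kidneys and 48.0 ± 17.7 CPM in ND + hIRI kidneys. Cfd was read in 11 of 12 libraries, with 1.60, 4.09 and 4.38 CPM in HFD + hIRI kidneys and 3.67, 9.77 and 5.75 CPM in HFD + sham kidneys. It measured 7.41, 0 and 3.84 CPM in ND + hIRI kidneys, where the count of 0 allows up to 0.14 CPM at 3 counts, and 16.96, 142 and 2.32 CPM in ND + sham kidneys. ND + sham replicate 2 also had the highest adipocyte marker sum, 64.4 CPM, and ND + hIRI replicate 2 the lowest, 0.374 CPM. Other libraries did not keep this order. HFD + hIRI replicates 2 and 3 had sums of 46.1 and 51.2 CPM with Cfd at 4.09 and 4.38 CPM. In ND + sham replicate 1 the sum was 18.4 CPM with Cfd at 16.96 CPM. The part of fat cells in the Cfd values was not tested.

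**Figure D5:**
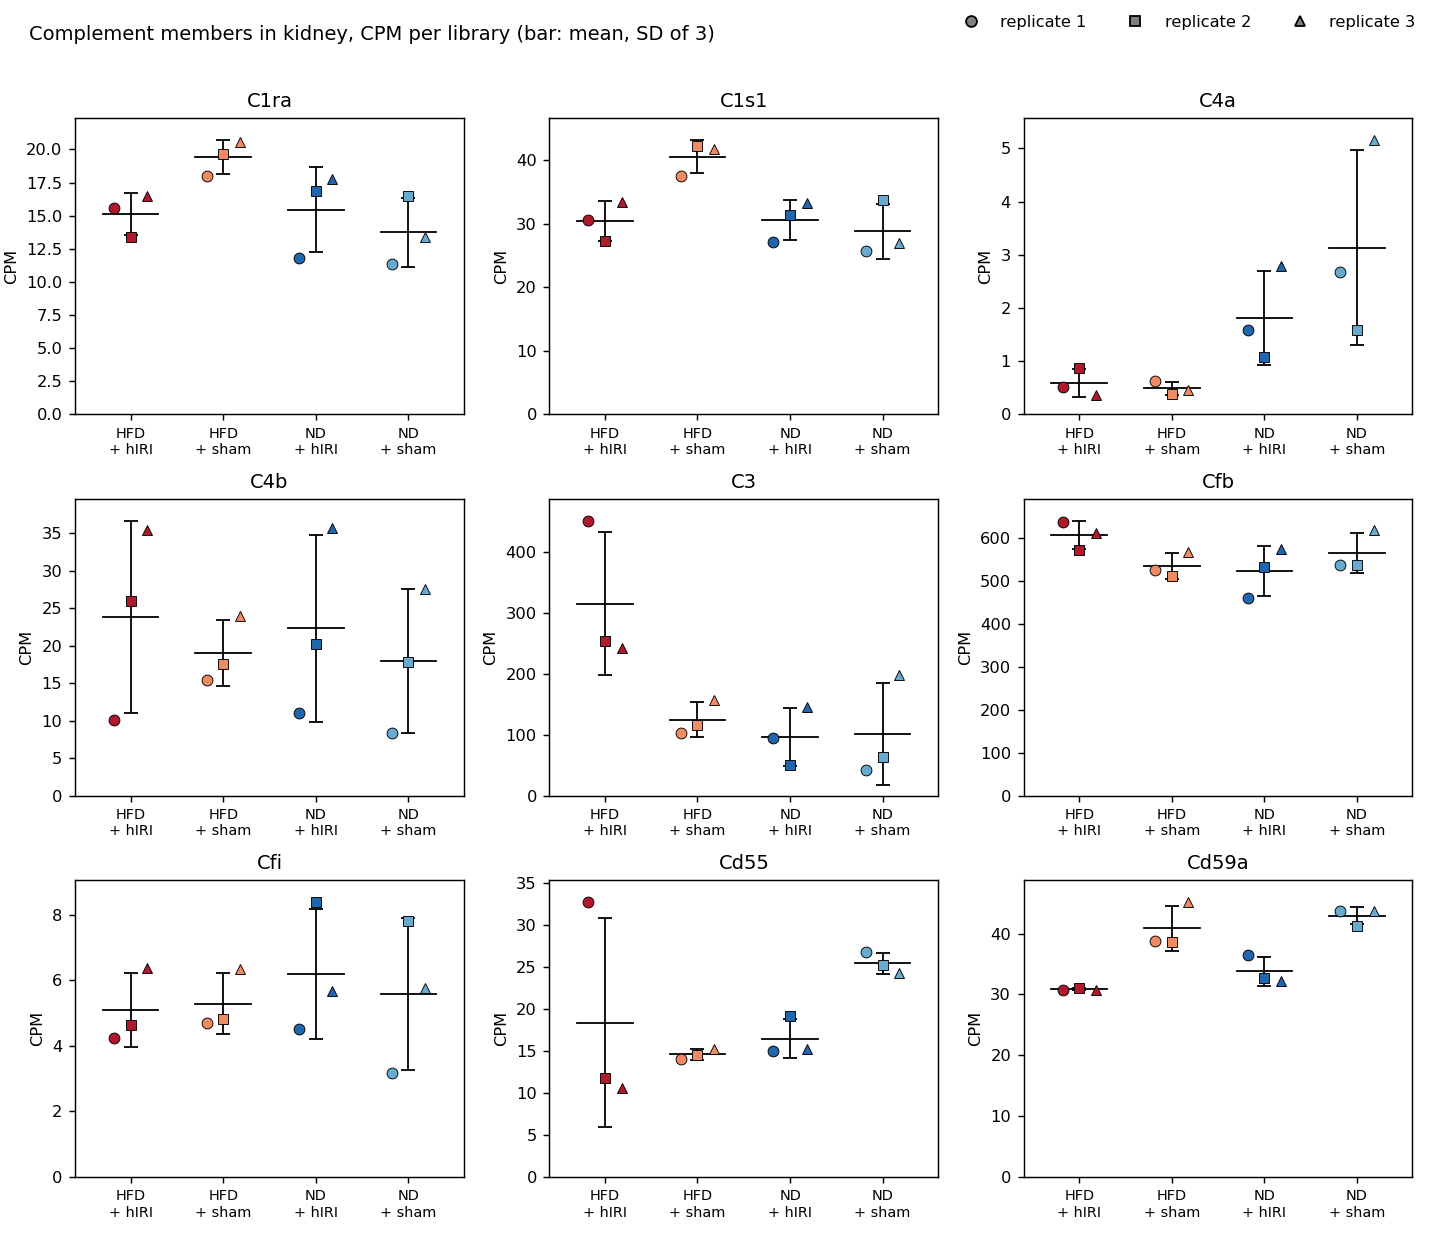
CPM of the 9 members in each library, by group, on axes that start at 0, with symbols for replicate number and bars for the mean and SD of 3. C3 in HFD + hIRI lies at 241 to 450.1 CPM, above all other libraries, Cd59a in HFD + hIRI lies at 30.7 to 31.1 CPM, below all other libraries, and C4a is lower in the 6 HFD than in the 6 ND libraries.

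Among the regulators, Cd59a was the 1 member that passed. Cd59a encodes the mouse CD59 protein found in most tissues, which stops the membrane attack pore from forming. Cd59a (chr2:104095801-104115410, plus strand) measured 30.7, 31.1 and 30.8 CPM in HFD + hIRI kidneys and 38.8, 38.6 and 45.2 CPM in HFD + sham kidneys. It measured 36.5, 32.7 and 32.1 CPM in ND + hIRI and 43.7, 41.3 and 43.8 CPM in ND + sham kidneys. On both diets the hIRI libraries lay below the sham libraries, and each HFD + hIRI library lay below the other 9, as for 7.35% of all genes. Cd59a fell in HFD + hIRI relative to HFD + sham kidneys by 0.41 on the log2 scale (SE 0.090, adjusted p = 0.0195, edgeR). In ND + hIRI over ND + sham kidneys it measured -0.35 (SE 0.089, adjusted p = 0.166), and the difference between diets in this response was within 1 SE of 0. Over ND + hIRI the value in HFD + hIRI kidneys was -0.13 (SE 0.090, adjusted p = 0.357).

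The Cd59a call over HFD + sham ended without HFD + sham replicate 1, 2 or 3 (adjusted p = 0.0555, 0.0738 and 0.0676). It also ended with the run of library numbers as a covariate (0.0789) and with only the libraries compared (0.0609). In the 8 libraries of the higher number run the value was -0.55 (adjusted p = 0.343). Over ND + sham Cd59a passed in ND + hIRI kidneys once ND + hIRI replicate 1 was left out (-0.41, adjusted p = 0.0495). In that fit 531 of all genes passed, against 0 with all libraries. The injured tubule marker sum of the library left out, mostly Spp1, lay below those of the sham kidneys. Kidney tubule and podocyte markers summed to between 12860 and 14140 CPM in HFD + hIRI kidneys and between 15070 and 15740 CPM in HFD + sham kidneys, without overlap. In ND + hIRI kidneys they summed to between 13210 and 15100 CPM and in ND + sham kidneys to between 14800 and 16120 CPM. Their part in the Cd59a values was not tested.

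Cd55, the decay-accelerating factor that dismantles C3-cleaving enzymes on the cell surface, was highest in ND + sham kidneys apart from 1 library. Cd55 (chr1:130439030-130462740, minus strand) measured 32.7, 11.7 and 10.6 CPM in HFD + hIRI kidneys and 14.0, 14.5 and 15.2 CPM in HFD + sham kidneys. It measured 15.0, 19.2 and 15.2 CPM in ND + hIRI and 26.8, 25.2 and 24.3 CPM in ND + sham kidneys. Both the highest and the lowest of the 12 libraries were HFD + hIRI kidneys. HFD + sham libraries were below the ND + sham libraries without overlap, with a log2FC of -0.80 (SE 0.34, adjusted p = 0.553). ND + hIRI libraries were also below the ND + sham libraries, with a log2FC of -0.63 (SE 0.34, adjusted p = 0.429). Without HFD + hIRI replicate 1 both passed, the first at -0.81 (adjusted p = 0.0356) and the second at -0.63 (adjusted p = 0.0431). The difference by diet over both surgeries then passed at -0.69 (adjusted p = 0.00482), against -0.33 (SE 0.24, adjusted p = 0.422) with all libraries. In that fit 10, 88 and 480 of all genes passed in these comparisons, against 2, 0 and 387 with all libraries. The first 2 of these comparisons do not hold the library left out, so their calls changed through the estimate of spread shared by all groups. That library had the highest Cd55 of the 12, so these calls are description only. HFD + hIRI replicate 1 had the highest injured tubule and neutrophil marker sums, 19990 and 142 CPM, whose part was not tested. Exons of Cd55 overlap those of the antisense gene Gm16083 by 102 bases.

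Cfi encodes factor I, the plasma protease that cleaves C3b and C4b for good, and its RNA was scarce. Cfi (chr3:129836739-129875328, plus strand) measured 4.23, 4.63 and 6.36 CPM in HFD + hIRI kidneys and 4.69, 4.80 and 6.35 CPM in HFD + sham kidneys. It measured 4.52, 8.37 and 5.67 CPM in ND + hIRI and 3.15, 7.79 and 5.77 CPM in ND + sham kidneys. All groups overlapped, and in all 6 comparisons the log2FC was within 1 SE of 0. The nearest pattern was that of Serpina1d, at 0.21 on the log2 scale beside an SD of 0.372 for Cfi.

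The members that did not overlap between groups were counted beside all genes. Between HFD + hIRI and ND + hIRI kidneys 3 of 9 members did not overlap (C3 higher, C4a and Cd59a lower), against 23.7% of all genes. Between HFD + hIRI and HFD + sham kidneys 5 of 9 did not overlap (C3 and Cfb higher, Cd59a, C1ra and C1s1 lower), against 46.7%. Between ND + hIRI and ND + sham kidneys it was 2 of 9 (Cd55 and Cd59a lower), against 21.6%, and between HFD + sham and ND + sham kidneys 4 of 9 (C1ra and C1s1 higher, C4a and Cd55 lower), against 25.2%. With 9 genes, none of these counts is read as a result about the members.

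Of 49 other complement genes listed, 35 were in the table, and 3 passed in HFD + hIRI over HFD + sham kidneys while 0 passed in the other 5 comparisons. The likelihood ratio test, DESeq2 and voom, whose shares of all genes called stand above, passed 5, 7 and 10 of the 35 in HFD + hIRI over HFD + sham. They passed 0, 2 and 1 in HFD + hIRI over ND + hIRI, 3, 3 and 4 in ND + hIRI over ND + sham, 1, 3 and 2 in HFD + sham over ND + sham, 6, 7 and 6 in HFD over ND of both surgeries, and 0 by each tool for the difference between diets in the response. Clu, which encodes clusterin, a protein that binds the forming membrane attack complex, rose to 1378, 1055 and 624 CPM in HFD + hIRI kidneys, against 191, 203 and 226 CPM in HFD + sham kidneys. Its log2FC was 2.30 (SE 0.38, adjusted p = 0.0127), and it is also known as a tubular injury gene. Susd4, a membrane protein that restrains complement activation, fell to 1.14, 0.880 and 0.922 CPM in HFD + hIRI kidneys, against 2.43, 2.01 and 2.51 CPM in HFD + sham kidneys (log2FC -1.25, SE 0.22, adjusted p = 0.0129). Colec11, a collectin that starts the lectin pathway, had a log2FC of -1.27 (SE 0.37, adjusted p = 0.0376) at 0.507 to 1.03 CPM in HFD + hIRI kidneys and 1.28 to 1.94 CPM in HFD + sham kidneys. In ND + hIRI over ND + sham kidneys Clu and Susd4 moved the same way, at 1.13 (SE 0.37, adjusted p = 0.232) and -1.02 (SE 0.21, adjusted p = 0.118). Neither passed there by edgeR's quasi-likelihood test, while Susd4 passed by all 3 other tools and Clu by voom. Colec11 lay within 1 SE of 0 there. The difference between diets in the response was 1.17 (SE 0.52, adjusted p = 0.49) for Clu and -0.22 (SE 0.30, adjusted p = 0.771) for Susd4. The Clu and Susd4 calls in HFD + hIRI over HFD + sham kidneys ended without HFD + sham replicate 2 (adjusted p = 0.0722 and 0.0718) or replicate 3 (0.0567 for both). They also ended with the run of library numbers as a covariate (0.0639 and 0.0609). The call of Colec11 ended without any of the 3 HFD + sham replicates (0.104, 0.112 and 0.0708), HFD + hIRI replicate 2 or 3 (0.0957 and 0.0657) or ND + sham replicate 2 or 3 (0.0502 and 0.0514). In the 8 libraries of the higher number run, where 0 of all genes passed in this comparison, all 3 calls ended.

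By diet, 0 of the 35 other complement genes passed. Over both surgeries 74.3% of them (26 of 35) had a positive log2FC, against 51.8% of all genes, and their median was 0.32, against 0.011 over all genes. At an unadjusted p under 0.05, 12 of the 35 were higher and 2 lower, where 12.5% of all genes were higher and 11.2% lower. In HFD + sham over ND + sham kidneys the median was 0.40, with 9 higher and 4 lower by the same p (4.58% and 4.22% of all genes). In HFD + hIRI over ND + hIRI kidneys it was 0.22, with 4 higher and 2 lower (14.9% and 12.2% of all genes). In HFD + hIRI over HFD + sham kidneys it was -0.032, with 5 higher and 4 lower (21.4% and 18.4%). In ND + hIRI over ND + sham kidneys 5 were higher and 4 lower (8.23% and 6.17%), and for the difference between diets in the response 1 was higher and 1 lower (5.79% and 4.35%). Genes of a list are not independent of each other, and no list was tested.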

How the data were processed

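Mouse kidney libraries of total RNA, 3 per group, were compared as 4 groups taken from the sample labels; each library was taken as 1 mouse. The deposited counts are whole reads per gene that the authors aligned with STAR 2.7.10a to mm10 and counted with featureCounts (Subread 2.0.3) after FastQC 0.11.5, per the labels' processing notes, which also name edgeR 3.42.4. Annotation, strand setting and low-count filter: not given in the sources used here. No test used the deposited log2 CPM values, which the authors derived from the counts. Columns of the authors' own comparisons (fold changes, p-values and FDR) were not used.

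Counts were scaled by TMM and fitted with edgeR 4.0.16 in R 4.3.3 (robust glmQLFit and glmQLFTest, 1 mean per group, filterByExpr, which kept all 14091 genes), with Benjamini-Hochberg adjustment over all genes. A standard error is the log2 fold change over the square root of F. With 3 mice against 3, an exact permutation p cannot go below 0.1, so none is given. Counting error is largest for C4a, with 8 to 151 counts. The members and lists were chosen with earlier results of these data known. Members, complement genes that passed, 8 functional partners and the 3 nearest patterns of C3, Cfb, C4b and Cfi could be named, and some of these are not reported here. Alternatives were other scalings, filters, tests (likelihood ratio, DESeq2 1.42.0, limma 3.58.1 voom with quality weights), only the libraries compared and a replicate block. Others were the run of library numbers (lower or higher) as a covariate, each library left out, and C4a and C4b summed. A fit of only the 8 libraries of the higher run of numbers in the library names was added after the data were seen. The fit was tested on simulated data. Deviations of same-numbered ND + hIRI and ND + sham libraries correlated weakly (0.170, 0.196 and 0.197), and in no other pair of groups did every number exceed 0.1. A block over the 6 ND libraries was therefore also fitted. Different-numbered libraries reached 0.471, so these correlations do not establish that the mice were paired.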

Additional observations from a re-analysis of the deposited data

How the results depend on the processing

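Numbers in the library names form a lower run (4 libraries, 2 of them HFD + sham and 0 HFD + hIRI) and a higher run (8 libraries), under 1 batch tag. In HFD + hIRI over HFD + sham kidneys, where 2 members passed, 0 passed with the run of library numbers as a covariate. There 1 passed with only the libraries compared (C3) and 1 with the replicate block (Cd59a). These 3 fits called 18, 836 and 1870 of all genes, against 2801. There the fits without 1 library passed 0 to 2 members, 0 without any HFD + sham replicate, where 276, 1 and 45 of all genes passed. In HFD + hIRI over ND + hIRI kidneys 2 members passed by the likelihood ratio test and 2 by DESeq2. In ND + hIRI over ND + sham kidneys 1 passed by DESeq2 and 1 by voom with quality weights. There 0 to 1 passed without 1 library, in fits that called 0 to 531 of all genes. In HFD + sham over ND + sham kidneys 1 passed by the likelihood ratio test, 1 by DESeq2 and 3 by voom with quality weights. With only the libraries compared 2 passed, beside 226 of 14031 genes. Without 1 library 0 to 1 passed, in fits that called 0 to 10 of all genes. On the HFD over both surgeries, where 1 member passed, 2 passed by voom with quality weights, 0 within the higher run and 0 with a minimum of 10 counts per library, which removes C4a, and 0 to 2 passed without 1 library. The fits without 1 library called 38 to 1469 of all genes on the HFD over both surgeries. For the difference between diets in the response, 0 members passed under every alternative run.

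Summed counts of C4a and C4b, most of them C4b in every library, gave 0.022 (adjusted p = 0.982) in HFD + hIRI over ND + hIRI. In ND + hIRI over ND + sham kidneys they gave 0.19 (adjusted p = 0.876). C4a alone gave -1.59 and -0.79. Because C4b weighs most in the sum, the sum does not test C4a. Within the higher run the diet value of Cd59a was 0.0073 (adjusted p = 0.984). The cause of this Cd59a value was not tested. Upper quartile scaling moved the median log2 fold change of all genes in HFD + hIRI over HFD + sham kidneys by -0.112 (1052 higher and 1621 lower, against 1607 and 1194) and library totals alone by -0.167 (852 and 2112), and no member changed its call or sign there with either. In the difference between diets in the response C4b changed sign with both, at -0.023 and -0.046, against 0.016. Over all 4 groups replicate numbers did not pair the samples (correlations of deviations between -0.417 and 0.215 over 18 same-numbered pairs). With the replicate block over all 12 libraries the call of C1s1 ended (adjusted p = 0.0556) while those of Cd59a and C4a held. A block over the 6 ND libraries, added after the data were seen, left 0 members and 0 of all genes called in ND + hIRI over ND + sham kidneys. Depth limits C4a, which had as few as 8 counts.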
